A study of Mus musculus with 10 samples.

Results

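Sterol and fatty acid synthesis was examined through 33 listed genes, which were 18 enzymes of the sterol pathway, 9 enzymes of fatty acid synthesis and desaturation, and 6 others. The 6 are called regulators here, and are the SREBP transcription factors, their escort and anchors, and the sterol carrier Stard4. Each gene was read by 1 probe set, the one with the highest mean over the 10 arrays among those that name a single gene. Values were obtained for 32 of the 33 genes, out of 18193 genes measured in all. The enzyme gene Acat2 was not analysed here, which left 17 sterol enzymes, 9 fatty acid enzymes and 6 regulators. The values are log2 expression, and each difference is carcinoma-associated minus normal.

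Total RNA was measured on 10 Affymetrix Mouse430_2 arrays, of which 5 held cultures of carcinoma-associated fibroblasts (CAF), the fibroblasts of a tumour, and 5 held cultures of normal lung fibroblasts (NF). The cells of both groups came from mouse lungs, were expanded for 10 to 14 days in DMEM with 10% serum and antibiotics, and were replated and grown overnight before the RNA was taken. Strain, genotype, age, tumour model and the way the fibroblasts were separated from other lung cells are not given in the sources used here. Arrays of 1 group are titled as biological replicates, and nothing further says that they came from separate animals, so p-values measure the spread between these arrays.

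Cells build cholesterol from acetyl-CoA through mevalonate, the isoprenoid diphosphates, squalene and lanosterol, and they build palmitate from the same acetyl-CoA, which they then elongate and desaturate. Both branches are controlled by the SREBP proteins, which are made as membrane precursors and are held in the endoplasmic reticulum by the escort Scap and the anchors Insig1 and Insig2 while sterols are plentiful. When sterols run low, Scap carries the precursors to the Golgi, where they are cut, and the released factors raise the enzyme genes, with the product of Srebf2 acting mainly on sterol genes and a product of Srebf1 mainly on fatty acid genes.

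SREBP factors act at promoters together with the factors NF-Y, which binds CCAAT, and Sp1, which binds GC boxes. The RefSeq promoter table (build GRCm38.p6) held windows for 26 of the 33 genes, 34 windows in all because some genes have more than 1 start. Each window was searched over the 250 bases before the start, on both strands, for a sterol-element-like motif (TCACNCCAC), CCAAT, the E-box CACGTG and the GC box GGGCGG. None of the other 3 motifs lies within the letters of the first. The stretches of Hmgcs1, Insig1, Hsd17b7 and Fads2, are printed 5′ to 3′ on the strand of the gene, and capitals mark the matches on either strand. The Hmgcs1 stretch, at chr13:119690101-119690350 on the plus strand, is shown because Hmgcs1 is the gene against which the others are set below and has the sole match to the sterol-element-like motif.
Hmgcs1: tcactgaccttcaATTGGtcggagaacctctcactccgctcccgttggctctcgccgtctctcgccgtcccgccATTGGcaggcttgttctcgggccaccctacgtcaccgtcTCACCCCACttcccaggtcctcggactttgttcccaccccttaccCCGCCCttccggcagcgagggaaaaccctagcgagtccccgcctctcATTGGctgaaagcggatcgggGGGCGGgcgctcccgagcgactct
The Insig1 stretch, at chr5:28071162-28071411 on the plus strand, is shown because Insig1 had the highest correlation with Hmgcs1 of the regulators over the 10 arrays.
Insig1: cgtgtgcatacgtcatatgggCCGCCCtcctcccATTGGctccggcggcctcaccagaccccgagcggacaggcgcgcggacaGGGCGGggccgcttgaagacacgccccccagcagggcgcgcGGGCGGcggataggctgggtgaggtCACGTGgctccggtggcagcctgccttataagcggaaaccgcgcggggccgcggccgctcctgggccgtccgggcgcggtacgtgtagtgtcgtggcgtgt
Hsd17b7, at chr1:169969206-169969455 on the minus strand, had the largest difference between the groups.
Hsd17b7: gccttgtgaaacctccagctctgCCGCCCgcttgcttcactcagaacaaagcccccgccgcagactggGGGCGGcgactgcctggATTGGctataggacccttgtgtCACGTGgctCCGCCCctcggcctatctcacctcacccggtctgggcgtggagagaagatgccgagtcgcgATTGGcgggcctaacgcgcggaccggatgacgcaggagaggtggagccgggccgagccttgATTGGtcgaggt
Fads2, at chr19:10101504-10101753 on the minus strand, had the lowest correlation with Hmgcs1 of the members.
Fads2: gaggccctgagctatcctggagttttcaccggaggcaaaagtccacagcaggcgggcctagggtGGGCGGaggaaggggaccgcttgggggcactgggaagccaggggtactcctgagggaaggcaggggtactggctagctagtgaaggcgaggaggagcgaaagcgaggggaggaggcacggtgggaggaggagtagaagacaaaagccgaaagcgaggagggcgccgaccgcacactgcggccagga
CCAAT was found in 14 of 18 sterol enzyme windows, in 2 of 6 fatty acid enzyme windows and in 5 of 10 regulator windows, against 33.8% of all 32851 windows of the same length. The GC box was found in 15 of 18 sterol, 3 of 6 fatty acid and 7 of 10 regulator windows, against 32.7% of all windows. The E-box was found in 3, 0 and 2 of these windows, against 6.02% of all, and the sterol-element-like motif in 1, 0 and 0, against 1.05% of all. A match describes letters in the window and does not show that a factor binds there.

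The array medians over all probe sets were 6.73 to 6.74 in CAF and 6.76 to 6.79 in NF, and the SD over probe sets was 2.41 to 2.44 in CAF and 2.33 to 2.39 in NF. The upper quartiles were 9.21 to 9.29 in CAF and 9.05 to 9.12 in NF, without overlap. Most members had means at about this level or above, in a range that ran higher on CAF arrays. The shares given below over all genes, many of them dimmer, are not matched to the members in level. Of 9 fibroblast markers, 8 had 9.81 or more on every CAF array and 9.54 or more on every NF array, among them Col1a2 at 14.61 to 15.29 in CAF and 14.86 to 15.44 in NF. The exception, Lum, had 7.06 to 14.12 in CAF and 8.18 to 14.49 in NF, so it was near the array median on some arrays of each group. All 10 macrophage markers were measured and 0 were called by limma. Their mean per array was 9.65 to 11.96 in CAF and 8.85 to 12.02 in NF, highest in CAF 1 (11.96) and NF 1 (12.02). The mean of 9 cell cycle genes was 8.18 to 11.90 in CAF and 8.75 to 12.47 in NF. In bulk cultures, fewer cells of a type and less RNA per cell cannot be told apart. The sample descriptions carry codes that begin with ls for all 5 CAF and for NF 4 and 5, and with vs for NF 1 to 3, with no meaning given. Differences are therefore also given against the 2 ls and the 3 vs NF arrays. Across all genes, limma called 137 (0.753%) at an adjusted p under 0.05, and the median difference over all genes was -0.04, with 42.7% of genes positive.

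Most sterol enzymes had higher mean values in CAF, but none passed the test, and the size of the differences depended on single arrays. Of 17 enzymes, 15 had a positive difference (88.2%) and 2 a negative one, with a median of 0.27 and a range of -0.05 to 1.00. Limma called 0 of them, against 0.753% of all genes. The exact Wilcoxon test called 0 of all genes, since even groups with no overlap had an adjusted p of 0.111, so its count of 0 in any list carries no information. At an unadjusted limma p under 0.05 there were 2, Hsd17b7 and Sc5d, both higher in CAF. At that level stood 22.3% of all genes in either direction, and 10.5% were higher in CAF. The enzymes moved together over the arrays, so that these are not 17 separate observations. Without NF 1, 10 differences were positive and 7 negative, with a median of 0.17. Against the ls NF arrays 11 were positive and 6 negative (median 0.16), and against the vs NF arrays all 17 were positive (median 0.46). The vs arrays include NF 1, so this contrast is not separate from the one without NF 1. The mean of the sterol enzymes was 10.11 on NF 1, 11.05 and 10.86 on NF 2 and NF 3 (vs), and 11.01 and 10.93 on NF 4 and NF 5 (ls).

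Hmgcs1, the HMG-CoA synthase at the entry to the mevalonate pathway, had values of 13.46, 12.42, 12.60, 12.93 and 12.53 on CAF arrays 1 to 5, against 11.54, 13.10, 12.60, 12.77 and 12.82 on NF arrays 1 to 5. CAF 1 was the highest and NF 1 the lowest of the 10 arrays, and the other values of the groups overlapped. The difference was 0.22 ± 0.30 (SE, n = 5 per group; limma adjusted p = 0.693), and it was -0.04 without NF 1. The 4 dimmer probe sets of Hmgcs1 gave differences of -0.06 to 0.12.

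Idi1, the isomerase that makes the starter unit of isoprenoid chains, varied most over the arrays among the sterol enzymes (SD 0.77 over 10 arrays). It had 12.50, 11.28, 11.88, 12.13 and 11.90 on the CAF arrays and 9.63, 11.54, 11.42, 11.61 and 11.66 on the NF arrays. All CAF arrays but CAF 2 lay above every NF array, and NF 1 lay far below the rest. The difference was 0.76 ± 0.40 (adjusted p = 0.285), 0.30 against the ls NF arrays and 1.07 against the vs NF arrays. Its dimmer probe set differed by 0.45 ± 0.42.

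Fdps, which makes farnesyl diphosphate, had the highest mean signal of the sterol enzymes, with 13.35, 12.65, 13.05, 12.93 and 12.73 in CAF and 11.55, 12.75, 13.11, 13.19 and 12.97 in NF. Apart from NF 1 the groups lay in the same range, and the difference of 0.23 ± 0.30 (adjusted p = 0.676) became -0.06 without NF 1. Squalene epoxidase, Sqle, which carries out a rate-limiting oxygenation of the pathway, had 12.39, 11.69, 11.87, 12.04 and 11.66 in CAF and 11.03, 12.19, 11.43, 11.73 and 11.70 in NF. NF 2 stood above 4 of the CAF arrays, and the difference was 0.31 ± 0.22 (adjusted p = 0.413).

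The enzymes with the smallest p act after lanosterol, in the trimming of the sterol ring. Hsd17b7, a sterol ketone reductase, had 11.75, 10.73, 11.16, 11.46 and 11.13 in CAF and 9.47, 10.81, 9.87, 10.42 and 10.65 in NF. The groups overlapped only through CAF 2, which lay below NF 2. Its mean was 11.25 ± 0.38 in CAF and 10.24 ± 0.56 in NF (SD, n = 5 each), a difference of 1.00 ± 0.28 (limma adjusted p = 0.0928), with 0.71 against the ls and 1.20 against the vs NF arrays. NF 1 was its lowest array, and without NF 1 the difference was 0.81 (limma adjusted p = 0.121). The probe set carries the suffix for probes that may also bind other transcripts. The dimmer probe sets of the gene gave 0.96 ± 0.23 and 0.73 ± 0.27, and the dimmest, near background at a mean of 5.87, gave -0.04 ± 0.08.

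Sc5d, which desaturates the ring of lathosterol, had 12.43, 12.20, 12.67, 12.42 and 12.28 in CAF and 11.20, 12.09, 11.64, 12.11 and 12.16 in NF. It was the sterol enzyme whose groups did not overlap, where 7.16% of all genes had no overlap and 2.97% had every CAF array above every NF array. The gap between the lowest CAF and the highest NF array was small beside the difference of 0.56 ± 0.19 (adjusted p = 0.132). Its dimmer probe sets differed by 0.89 ± 0.38 and 0.61 ± 0.28, and the main one by 0.27 against the ls and 0.75 against the vs NF arrays. Without NF 1 the main probe set differed by 0.40 (limma adjusted p = 0.145). Nsdhl, which takes part in removal of the methyl groups of lanosterol, had 12.15, 10.79, 11.56, 11.72 and 11.18 in CAF and 10.42, 11.43, 10.78, 11.10 and 11.09 in NF. The groups overlapped, and the difference was 0.52 ± 0.26 (adjusted p = 0.278).

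**Figure D1:**
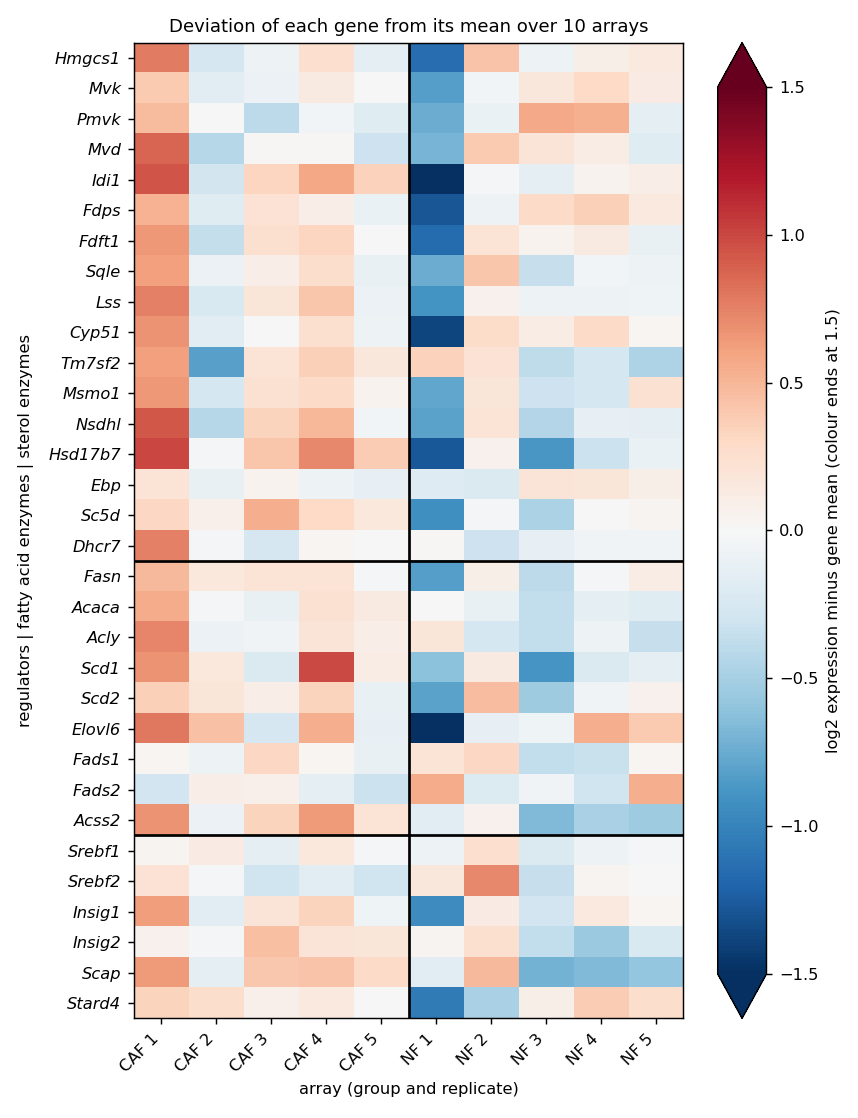
Log2 expression of 32 genes on the 10 arrays, each as its deviation from the mean of that gene over the arrays (colour, ending at 1.5 in either direction), with CAF arrays left of the black vertical line and NF arrays right of it. Horizontal lines part the 17 sterol enzymes, 9 fatty acid enzymes and 6 regulators. The column of NF 1 is nearly uniform in the sterol block and mixed below it, while CAF 1 lies above the gene mean for nearly all genes of every block.

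The remaining 10 sterol enzymes had differences of -0.05 to 0.42 with adjusted p-values of 0.311 to 0.936, and their groups overlapped. Of the mevalonate enzymes, the kinase Mvk differed by 0.11 ± 0.21, the next kinase Pmvk by -0.05 ± 0.26 and the decarboxylase Mvd by 0.07 ± 0.27. Squalene synthase, Fdft1, differed by 0.35 ± 0.28 on a probe set that may bind other transcripts, and by 0.11 ± 0.24 on its next brightest. Lanosterol synthase, Lss, differed by 0.42 ± 0.23, also on a probe set that may bind other transcripts, and by 0.69 ± 0.36 and -0.11 ± 0.08 on dimmer ones. Among the enzymes that follow it, the demethylase Cyp51 differed by 0.27 ± 0.32, the reductase Tm7sf2 by 0.22 ± 0.27, the oxidase Msmo1 by 0.38 ± 0.22 and the isomerase Ebp by -0.02 ± 0.11. Dhcr7, the reductase that makes cholesterol from its last precursor, differed by 0.21 ± 0.17.

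The sterol enzymes shared their extreme arrays. NF 1 was the lowest of the 10 arrays for 14 of 17 sterol enzymes (82.4%), against 11.7% of all genes, and CAF 1 was the highest for 15 of 17 (88.2%), against 5.34% of all genes. Both held for 12 enzymes (70.6%), against 0.511% of all genes. Tm7sf2, Ebp and Dhcr7 were the enzymes not lowest in NF 1, and Pmvk and Sc5d those not highest in CAF 1. The mean of the 17 enzymes was 11.61, 10.74, 11.08, 11.21 and 10.95 on CAF arrays 1 to 5 and 10.11, 11.05, 10.86, 11.01 and 10.93 on NF arrays 1 to 5. Leaving CAF 1 and NF 1 aside, the other NF means lay within the range of the other CAF means. The median SD of a sterol enzyme was 0.37 in CAF and 0.43 in NF, and 0.21 over the 4 NF arrays other than NF 1, where all genes had 0.14, 0.21 and 0.20. CAF 1 and NF 1, at opposite ends for the sterol enzymes, were both at the top for the macrophage markers, and the part of those cells in the sterol values was not tested.

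**Figure D2:**
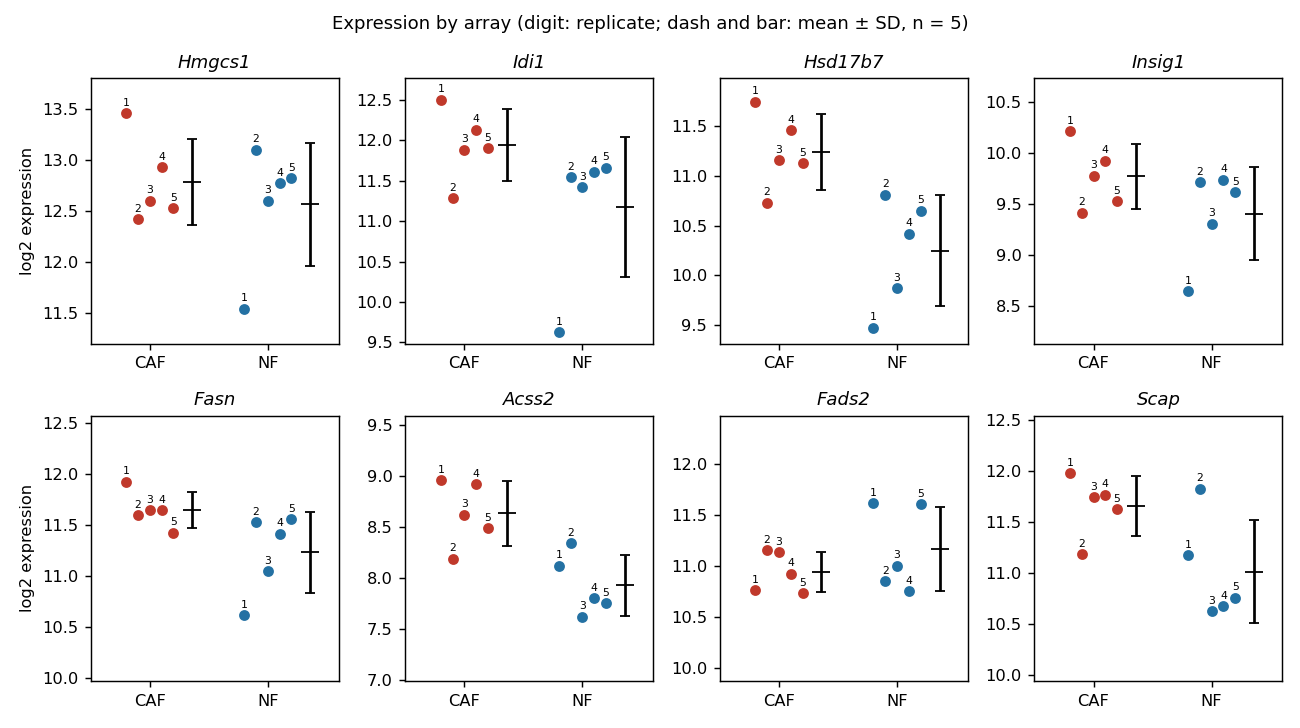
Log2 expression of 8 genes on each array (points, with the replicate number above each), CAF left and NF right, with the mean and SD of each group (n = 5) beside the points. NF 1 lies below its group for Hmgcs1, Idi1, Hsd17b7, Insig1 and Fasn but not for Acss2, Fads2 or Scap.

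Fatty acid enzymes also had mostly positive differences, none of which passed the test, and all 9 kept their sign without NF 1. Of 9 enzymes, 8 were higher in mean in CAF and 1, Fads2, was lower, with a median of 0.36 and a range of -0.22 to 0.71. Limma called 0 of the 9 at an adjusted p under 0.05, against 0.753% of all genes. An unadjusted limma p under 0.05 was found for 4, all higher in CAF, where 10.5% of all genes were so. Without NF 1 the median was 0.26, and it was 0.19 against the ls and 0.46 against the vs NF arrays. NF 1 was the lowest array for 3 of the 9 enzymes and CAF 1 the highest for 5.

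Acss2, which makes acetyl-CoA from acetate, had the smallest p of all 32 genes. It had 8.96, 8.19, 8.62, 8.92 and 8.49 in CAF and 8.12, 8.34, 7.62, 7.80 and 7.75 in NF. CAF 2 lay below NF 2, and the other CAF arrays lay above all NF arrays. The mean was 8.64 ± 0.32 in CAF and 7.93 ± 0.30 in NF (SD, n = 5 each), a difference of 0.71 ± 0.18 (limma adjusted p = 0.0844). It was 0.86 against the ls and 0.61 against the vs NF arrays, and the dimmer probe sets gave 1.00 ± 0.21 and 0.12 ± 0.11.

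The stearoyl-CoA desaturases make the monounsaturated fatty acids of membranes and stored fat. Scd1 had 13.20, 12.69, 12.32, 13.52 and 12.64 in CAF and 11.92, 12.67, 11.65, 12.31 and 12.40 in NF. CAF 1 and CAF 4 stood above the rest, CAF 3 and CAF 5 lay within the NF range, and the difference was 0.68 ± 0.26 (adjusted p = 0.163). Scd2, with the highest mean signal of the fatty acid enzymes, had 13.81, 13.63, 13.55, 13.78 and 13.34 in CAF and 12.65, 13.91, 12.92, 13.40 and 13.52 in NF. NF 2 was the highest of all arrays for Scd2, and the difference was 0.34 ± 0.22 (adjusted p = 0.381). These genes are close paralogs, and binding of the probes of one to the other was not tested.

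Fasn, the synthase that makes palmitate, had 11.93, 11.60, 11.65, 11.65 and 11.43 in CAF and 10.62, 11.53, 11.05, 11.42 and 11.56 in NF. The groups overlapped through CAF 5, and the difference was 0.41 ± 0.18 (adjusted p = 0.219), or 0.16 against the ls and 0.58 against the vs NF arrays. Acaca, the carboxylase that supplies malonyl-CoA to Fasn, had 10.43, 9.85, 9.76, 10.10 and 10.00 in CAF and 9.86, 9.76, 9.50, 9.74 and 9.69 in NF. The groups overlapped through NF 1, and the difference of 0.32 ± 0.13 (adjusted p = 0.181) was nearly equal against the ls (0.31) and the vs (0.32) NF arrays. Acly, which cuts citrate into cytosolic acetyl-CoA, differed by 0.36 ± 0.17 (adjusted p = 0.249).

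Elovl6, which lengthens palmitate, had the largest SD over the arrays of the 32 genes (0.84), with 10.58, 10.22, 9.53, 10.33 and 9.66 in CAF and 7.63, 9.66, 9.72, 10.33 and 10.18 in NF. NF 1 alone was low, at -2.34 from the mean of the other NF arrays, and the others overlapped. The difference was 0.56 ± 0.48 (adjusted p = 0.514), but -0.19 against the ls and 1.06 against the vs NF arrays. The desaturases of polyunsaturated fatty acids did not share this pattern. Fads1 differed by 0.07 ± 0.15 (adjusted p = 0.805) and its dimmer probe set by -0.32 ± 0.11. Fads2 differed by -0.22 ± 0.19 (adjusted p = 0.510), with -0.24 against the ls and -0.22 against the vs NF arrays, and NF 1 was its highest array at 11.61.

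Among the regulators, the genes of the transcription factors had differences of -0.23 and 0.06, and the genes of the proteins that carry or anchor them had differences of 0.35 to 0.65. Of 6 regulators, 5 had a positive difference, the median was 0.34, and limma called 0, against 0.753% of all genes. At an unadjusted limma p under 0.05 there were 2, Scap and Insig2, both higher in CAF, where 10.5% of all genes were so. Without NF 1 the median was 0.14, and it was 0.09 against the ls and 0.33 against the vs NF arrays.

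Srebf1, whose products act mainly on fatty acid genes, had 10.69, 10.77, 10.52, 10.81 and 10.62 in CAF and 10.58, 10.90, 10.43, 10.57 and 10.63 in NF. The groups overlapped throughout, with a difference of 0.06 ± 0.10 (adjusted p = 0.743), and this probe set does not part the isoforms of the gene. Srebf2 had 10.54, 10.29, 10.03, 10.16 and 10.03 in CAF and 10.49, 11.04, 9.98, 10.36 and 10.32 in NF. NF 2 was the highest array, and the difference was -0.23 ± 0.18 (adjusted p = 0.488). The dimmer Srebf2 probe set differed by -0.04 ± 0.14.

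Scap, the escort of the precursors, had the highest mean and the largest SD of the regulators, with 11.98, 11.19, 11.75, 11.77 and 11.63 in CAF and 11.18, 11.83, 10.63, 10.68 and 10.76 in NF. NF 3, 4 and 5 lay below every CAF array, while NF 1 and NF 2 lay within or next to the CAF range. The difference was 0.65 ± 0.24 (adjusted p = 0.159), or 0.94 when set against the ls and 0.45 against the vs NF arrays. Insig2 had 10.36, 10.28, 10.75, 10.49 and 10.47 in CAF and 10.33, 10.54, 9.92, 9.74 and 10.06 in NF. NF 3, 4 and 5 were again the low arrays, and the difference was 0.35 ± 0.15 (adjusted p = 0.213), or 0.57 against the ls and 0.21 against the vs NF arrays.

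Insig1, an anchor of the precursors and itself a target of SREBP factors, had 10.22, 9.42, 9.78, 9.93 and 9.53 in CAF and 8.65, 9.72, 9.31, 9.74 and 9.62 in NF. CAF 1 was the highest and NF 1 the lowest array, as for the sterol enzymes. The difference was 0.37 ± 0.23 (adjusted p = 0.366), or 0.09 when set against the ls and 0.55 against the vs NF arrays. Stard4, a carrier of sterols through the cytosol, differed by 0.33 ± 0.25 (adjusted p = 0.469), with -0.16 against the ls and 0.65 against the vs NF arrays.

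**Figure D3:**
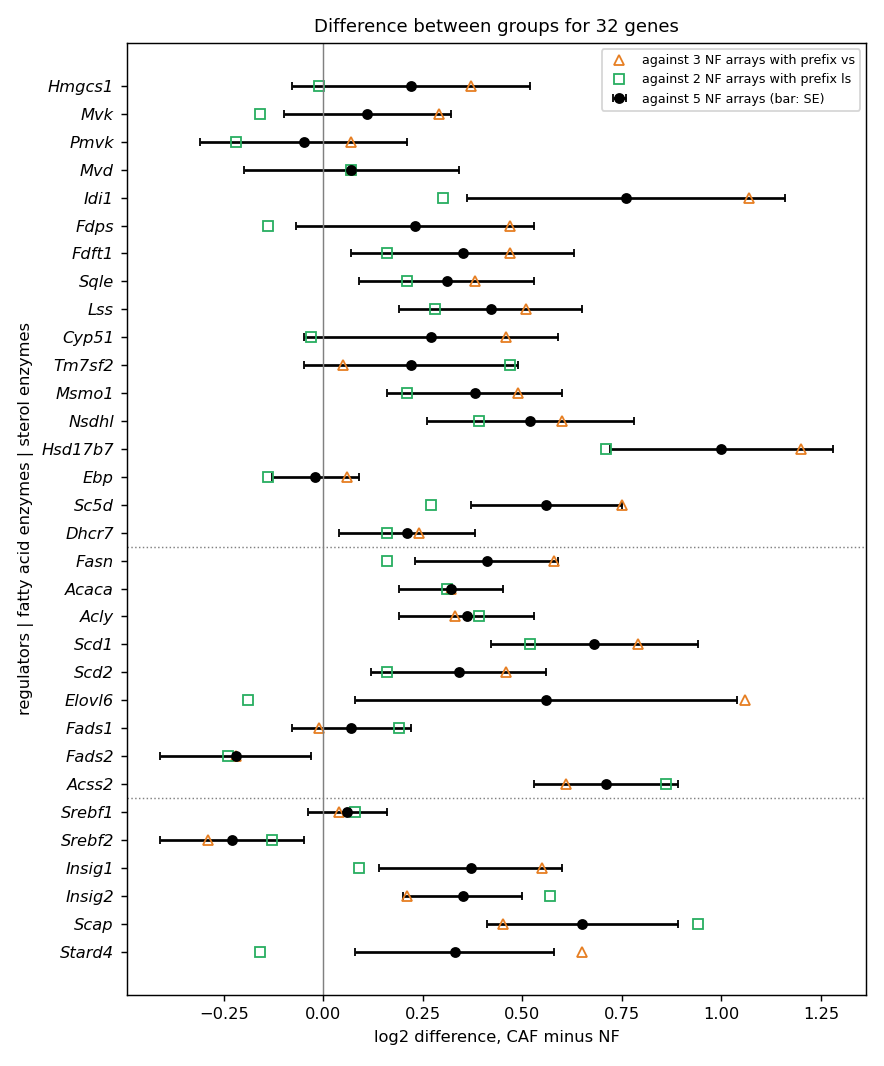
Log2 difference, CAF minus NF, of 32 genes against all 5 NF arrays (black, bars are SE), against the 3 NF arrays with code vs (triangles) and against the 2 with code ls (squares). Most points lie right of 0, and the squares lie left of the triangles for most sterol enzymes and right of them for Acss2, Insig2 and Scap.

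Over all 10 arrays, covariation was higher among the sterol enzymes than among the other members, but this order depended on 2 arrays. The median Pearson r over their 136 pairs was 0.71 (-0.23 to 0.96), with 132 pairs positive. It was 0.31 over 36 pairs of fatty acid enzymes, 0.28 over 15 pairs of regulators and 0.40 over 153 pairs of a sterol with a fatty acid enzyme. All pairs share the same arrays and their normalization. Deviations from the group means gave 0.75, 0.17, 0.29 and 0.32 for these 4 kinds of pair, so the sterol value was as high once the group means were removed. Within the 5 CAF arrays the sterol median was 0.89, and within the 5 NF arrays it was 0.78. Pairs of a sterol with a fatty acid enzyme had 0.63 within CAF and -0.08 within NF, and fatty acid pairs had 0.57 and 0.28. A high r is common over 5 arrays: of all other genes, 4.3% in CAF and 4.67% in NF had an r over 0.8 with Hmgcs1. Without NF 1 the median was 0.63 for sterol pairs and 0.56 for fatty acid pairs. Without NF 1 and CAF 1 it was 0.33 for sterol pairs, below the 0.42 of fatty acid pairs.

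Set against Hmgcs1, all 18192 other genes had a median r of -0.01, and the middle 90% lay between -0.55 and 0.49. An r over 0.8 was found for 38 genes (0.209%), among them 10 sterol enzymes, 3 fatty acid enzymes and 1 regulator, and 13 of the 20 genes closest to Hmgcs1 were members of the list. The sterol enzymes closest to it were Cyp51 (0.96), Sqle (0.93), Fdft1 (0.93), Lss (0.92) and Idi1 (0.89), and those least like it were Ebp (0.45), Dhcr7 (0.35) and Tm7sf2 (0.19). Of the fatty acid enzymes, Fasn had 0.85, Elovl6 0.84, Scd2 0.82, Scd1 0.60, Acaca 0.38, Acss2 0.37, Acly 0.20, Fads1 -0.06 and Fads2 -0.61. Insig1 (0.94) was the regulator closest to Hmgcs1, with Srebf2 at 0.24 and Insig2 at 0.04.

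The order of the other members in their likeness to Hmgcs1 depended on NF 1. Without NF 1, Cyp51 (0.93), Mvd (0.88) and Sqle (0.87) were the closest sterol enzymes, and Tm7sf2 (0.68) and Dhcr7 (0.61) stood above Hsd17b7 (0.53), Fdps (0.52), Pmvk (0.30), Ebp (0.22) and Sc5d (0.20). The fatty acid enzymes then no longer parted, with Acaca at 0.61, Scd2 at 0.60, Fasn and Acly at 0.58, Scd1 at 0.53, Elovl6 at 0.48 and Acss2 at 0.46, while Fads1 had 0.32 and Fads2 -0.27. Of the regulators, Insig1 had 0.83, Srebf2 0.65, Insig2 0.12 and Stard4 -0.06 without NF 1. Without NF 1 and CAF 1, an r over 0.8 was found for 339 genes (1.86%), of which 1 was a sterol enzyme, Cyp51 (0.83), and 0 of the 20 closest genes were members.

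**Figure D4:**
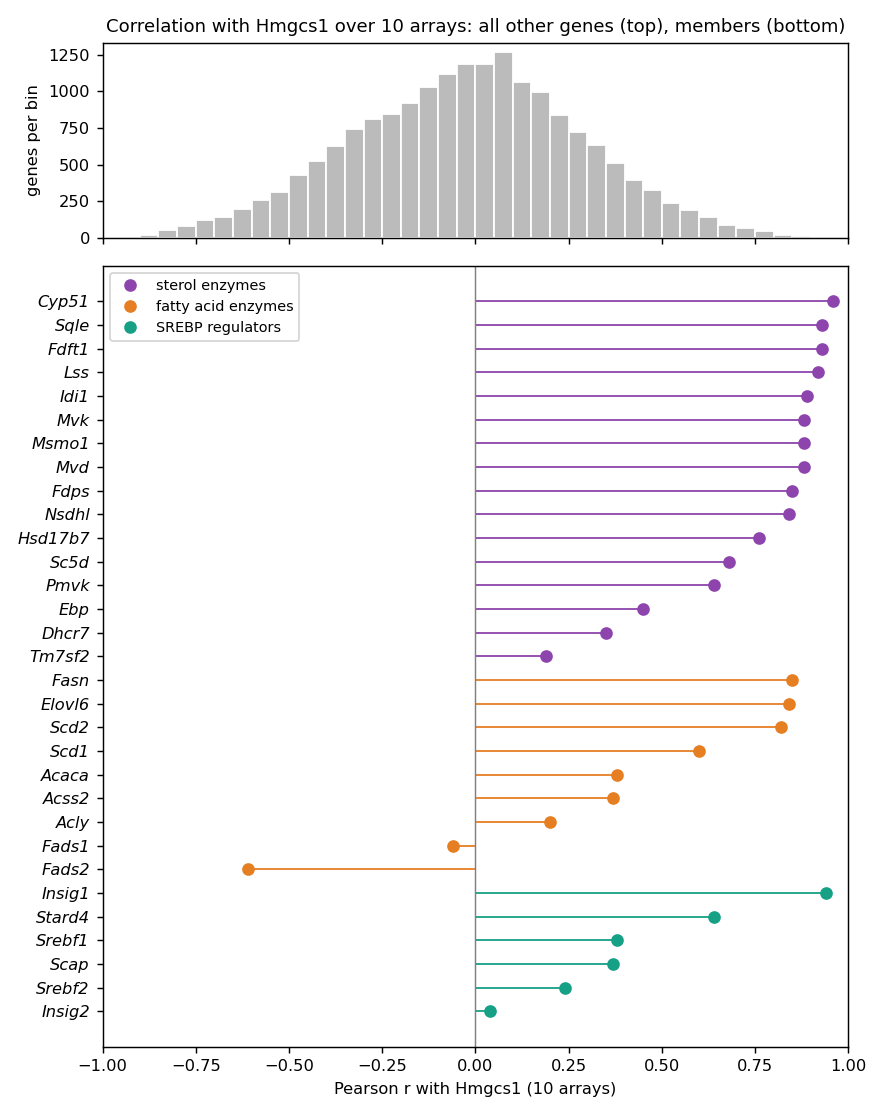
Pearson r with Hmgcs1 over 10 arrays, as a histogram over all other genes (top, genes per bin of r) and for each of the 31 other members (bottom, coloured by role). The histogram centres near 0, and 14 members lie above 0.8.

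A family of 8 pairs was tested over the 10 arrays with a 2-sided permutation test, and p-values were adjusted over these 8. Hmgcs1 and Sqle had r = 0.93 (permutation p = 0.00028, adjusted p = 0.00192) and rho = 0.90 (permutation p = 0.00085, adjusted p = 0.0068). Hmgcs1 and Insig1 had r = 0.94 (permutation p = 0.00048, adjusted p = 0.00192) and rho = 0.82 (permutation p = 0.00567, adjusted p = 0.0158). Hmgcs1 and Idi1 had r = 0.89 (permutation p = 0.00312, adjusted p = 0.00832), while rho was 0.65 (permutation p = 0.0488, adjusted p = 0.0977). For both of the first pairs the rank correlation also passed, and for Idi1 it did not.

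Between the branches, Hmgcs1 and Fasn had r = 0.85 (permutation p = 0.00469, adjusted p = 0.00938) and rho = 0.60 (permutation p = 0.0747, adjusted p = 0.12). Within the fatty acid branch, Fasn and Scd1 had r = 0.75 (permutation p = 0.0133, adjusted p = 0.0213) and rho = 0.82 (permutation p = 0.00592, adjusted p = 0.0158). Fasn and Acaca had r = 0.49 (permutation p = 0.154, adjusted p = 0.206) and rho = 0.52 (permutation p = 0.132, adjusted p = 0.163). The genes of the transcription factors did not pass with their target genes: r was 0.44 for Fasn and Srebf1 (permutation p = 0.198, adjusted p = 0.226; rho = 0.50, permutation p = 0.142, adjusted p = 0.163). For Hmgcs1 and Srebf2 it was 0.24 (permutation p = 0.473, adjusted p = 0.473; rho = 0.42, permutation p = 0.234, adjusted p = 0.234).

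None of these relations passed without their most extreme arrays, though the 8 arrays left cover a narrower range of the first gene. When the 2 arrays farthest from the median of the first gene were left out (CAF 1 and NF 1 for Hmgcs1, NF 1 and NF 3 for Fasn), 0 of the 8 pairs passed after adjustment in the exact permutation test, and 3 had an unadjusted p under 0.05. The 3 were Hmgcs1 with Sqle (exact permutation p = 0.0333), Hmgcs1 with Srebf2 (p = 0.0389) and Fasn with Acaca (p = 0.0486). The last 2 of these had a higher r than over all 10 arrays, where it was 0.24 and 0.49. Without the 2 arrays, the r of Hmgcs1 was 0.75 with Sqle, 0.63 with Insig1, 0.27 with Idi1, 0.21 with Fasn and 0.71 with Srebf2. That of Fasn was 0.59 with Scd1, 0.74 with Acaca and 0.13 with Srebf1. For Hmgcs1 with Sqle, rho was then 0.81 (exact permutation p = 0.0218, adjusted p = 0.174), and it was 0.64 with Insig1, 0.31 with Idi1 and 0.21 with Fasn. Within the CAF arrays Hmgcs1 had an r of 0.98 with Sqle, 0.95 with Insig1, 0.89 with Idi1 and 0.88 with Fasn, and within the NF arrays 0.92, 0.97, 0.96 and 0.94, each group with its own extreme array. Deviations from the group means gave r = 0.59 for Fasn and Scd1 (permutation adjusted p = 0.112), while the 4 other pairs that had passed still passed.

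**Figure D5:**
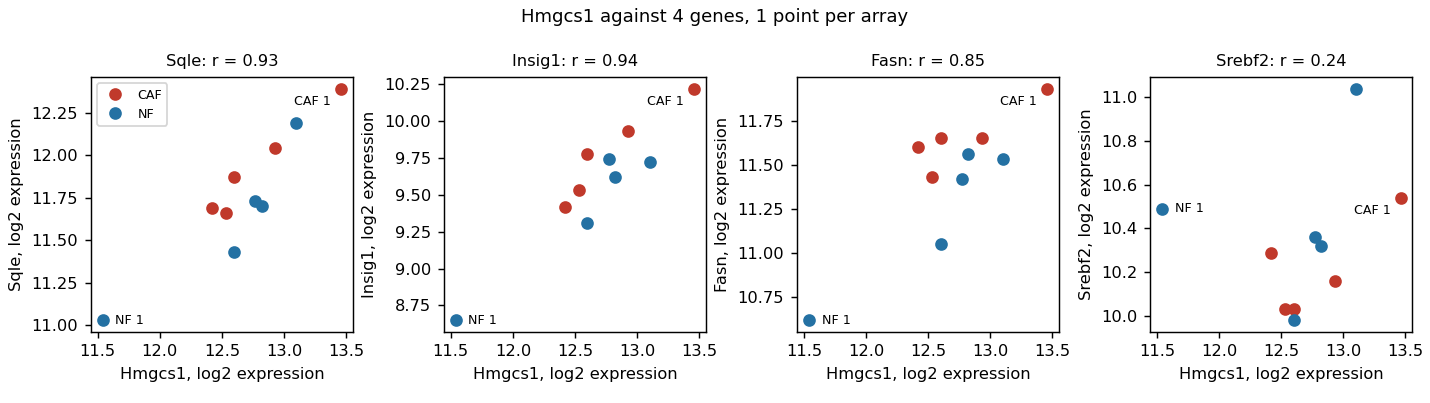
Log2 expression of Sqle, Insig1, Fasn and Srebf2 against Hmgcs1, 1 point per array, CAF in red and NF in blue, with CAF 1 and NF 1 named. Sqle, Insig1 and Fasn run from NF 1 at the lower left to CAF 1 at the upper right, and in the Srebf2 panel NF 1 lies apart from the other arrays.

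Other genes of the 2 pathways were taken from separate lists. Of 21 other sterol genes, such as those for uptake, transport, efflux and SREBP cleavage, 14 were analysed. Limma called 0 of them, and 7 had an unadjusted p under 0.05, all higher in CAF, where 10.5% of all genes were so (median difference 0.18). Npc1, which moves cholesterol out of lysosomes, had the smallest p, with 9.87, 9.09, 9.49, 9.25 and 9.40 in CAF and 8.97, 9.12, 8.61, 8.38 and 8.67 in NF. The groups overlapped by CAF 2 and NF 2, and the difference was 0.67 ± 0.17 (adjusted p = 0.0848). The smallest p among negative differences was that of Rnf139, a ligase of the endoplasmic reticulum (-0.10 ± 0.10, adjusted p = 0.591).

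Of 21 other fatty acid genes, 20 were analysed. Limma called 0 of them. At an unadjusted p under 0.05 there were 2 higher and 1 lower in CAF (median difference 0.17), where 10.5% of all genes were higher, so the share that was higher is near that of all genes. Acsl4, which activates long polyunsaturated fatty acids, had 12.38, 12.33, 12.23, 12.32 and 12.71 in CAF and 11.51, 11.15, 11.95, 12.15 and 11.91 in NF. The groups did not overlap, and the difference was 0.66 ± 0.18 (adjusted p = 0.093), or 0.36 against the ls NF arrays. Thrsp, a nuclear protein tied to lipogenesis in liver and fat, had 7.69 to 7.91 in CAF and 7.92 to 8.13 in NF, a difference of -0.19 ± 0.07 (adjusted p = 0.134), also with no overlap, where 4.19% of all genes had every CAF array below every NF array.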

How the data were processed

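Expression of 10 cultures (5 CAF, 5 NF) was measured on 1-colour Affymetrix arrays. The authors' deposited log2 values were made with RMA in Affymetrix Expression Console, per the submitters' processing notes, so they are background-corrected and quantile-normalized, and each value is relative to the rest of its array. The method makes no call of presence, and values near the low end cannot be told from background. Of 45101 probe sets, 64 controls were left out, 34945 had 1 gene symbol, 932 several and 9160 were not listed in the platform table. Symbols of 34741 were set through Entrez numbers, and how many symbols this changed was not counted. Genes were fitted with limma 3.58.1 in R 4.3.3 (lmFit, eBayes, group as the only term) on all 18193 genes, with Benjamini-Hochberg adjustment over all of them. The number of arrays limits the precision. The procedure was tested on simulated data. Correlations used 100000 resamples over 10 arrays, all 40320 orders over 8, and shuffling within groups for deviations from group means (SciPy 1.17.1).

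The members, lists, pairs and tests were chosen with earlier results of these data known. All members were accounted for. Values on every array are given for the 3 smallest p, the brightest gene and the largest SD in each role group, and for members of the tested pairs; from other pathway genes, the smallest p in each direction is given. Deviations of same-numbered CAF and NF arrays from their group means had r from -0.528 to 0.339. The highest was for number 1, and NF 1 was the NF array most like CAF 1. For CAF 2 to 5 an NF array of another number was closest. These values cannot settle whether the numbers pair the arrays, and the main fit did not pair them. Alternatives covered scaling, probe set choice, filters, the prior, array weights, the exact Wilcoxon test, the ls and vs codes and each array left out.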

Additional observations from a re-analysis of the deposited data

Results flagged for a closer look

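In each of the 32 genes and both groups (64 groups of 5 arrays), the highest and the lowest array were compared with the rest of their group by Dixon's test, which marks about 5% of groups by chance. It marked 7. NF 1 was far below the other NF arrays in 6 of them: Idi1 at 9.63, Fdps at 11.55, Fdft1 at 10.66, Lss at 8.99 and Cyp51 at 9.76 among the sterol enzymes, and Elovl6 at 7.63 among the fatty acid enzymes. CAF 1 was far above the other CAF arrays for Dhcr7, at 9.91. The 5 sterol enzymes covary over the arrays and are not separate observations. NF 1 also had the highest macrophage marker mean of the 10 arrays (12.02), and its part in these values was not tested.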

How the results depend on the processing

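Of 736 differences of the 32 genes under 23 alternatives, 698 kept their sign and 38 did not, 20 genes kept it in every alternative, and 12 changed it in at least 1. Part of these counts was fixed in advance. The exact Wilcoxon test, the trended robust prior, the filter on level and the replicate block cannot change a difference. Probe set choice cannot change it for genes with 1 probe set, and the codes as a term repeat the ls comparison. Array weights, which down-weight arrays that fit the model poorly, called 4 members: Hsd17b7 (0.91, adjusted p = 0.0439), Acss2 (0.84, adjusted p = 0.0276), Insig2 (0.47, adjusted p = 0.0482) and Scap (0.86, adjusted p = 0.0319), which is 1 sterol enzyme, 1 fatty acid enzyme and 2 regulators. The same setting called 1597 of all 18193 genes (983 higher, 614 lower), so the 4 calls are to be read beside that share. It also called 4 of the 14 other sterol genes, among them Npc1 (0.80, adjusted p = 0.0304). All other alternatives called 0 members of each role group. After a further quantile normalization the median difference was 0.21 for sterol enzymes, 0.35 for fatty acid enzymes and 0.24 for regulators. In the main fit these medians were 0.27, 0.36 and 0.34. Positive differences then numbered 14 of 17, 8 of 9 and 4 of 6.

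The count of 137 genes (102 higher, 35 lower) became 285 with array medians subtracted (250 higher, 35 lower), 92 after a further quantile normalization (43 higher, 49 lower), 50 at or above the median level, 235 with the probe set of highest variance, 46 with a trended robust prior, 1 against the ls NF arrays and 0 with the ls and vs codes as a term (limma, 2649 at an unadjusted p under 0.05) or in the exact Wilcoxon test (3184 at an unadjusted p under 0.05), which cannot pass the adjusted threshold here. Leaving out each array in turn gave 0 to 166: limma called 0 without CAF 1, CAF 3, CAF 5 or NF 3 (3378, 3538, 3003 and 3852 at an unadjusted p under 0.05), 1 without CAF 4, and 24, 63 and 46 without NF 1, NF 4 and NF 5. With the replicate number as a block limma called 0 genes, with 3017 at an unadjusted p under 0.05, and whether same-numbered arrays share more than a number is not given.

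The sign of a difference changed in these cases. With the codes as a term, and equally against the ls NF arrays, they were -0.01 for Hmgcs1, -0.16 for Mvk, -0.14 for Fdps, -0.026 for Cyp51, -0.19 for Elovl6 and -0.16 for Stard4. Against the vs NF arrays they were 0.067 for Pmvk, 0.064 for Ebp and -0.0092 for Fads1. A further quantile normalization gave -0.061 for Mvd and -0.038 for Srebf1, array medians 0.023 for Ebp, array weights -0.012 for Mvk, the mean of all probe sets -0.012 for Fdft1 and -0.13 for Fads1, and the probe set of highest variance -0.32 for Fads1. Leaving out each array in turn gave -0.037 to 0.35 for Hmgcs1, -0.086 to 0.20 for Mvk, -0.24 to 0.088 for Pmvk, -0.14 to 0.19 for Mvd, -0.062 to 0.35 for Fdps, -0.043 to 0.37 for Cyp51, -0.075 to 0.027 for Ebp and -0.014 to 0.16 for Fads1.

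Of the 8 tested pairs, 5 passed on all arrays and 0 without the 2 farthest arrays, where r was 0.27 for Hmgcs1 with Idi1, 0.75 with Sqle, 0.63 with Insig1 and 0.21 with Fasn, and 0.59 for Fasn with Scd1. Fasn with Acaca had r = -0.21 within NF. The median r of sterol pairs was 0.63 without NF 1 and 0.33 without NF 1 and CAF 1, alternatives chosen after seeing the data. The causes of these changes were not tested, other than that fewer arrays or genes enter some fits. Differences of dim probe sets, near background, are less certain in size.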

Other observations

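Of the 14 other sterol genes analysed, 9 had a positive difference and 5 a negative one. The 4 genes described next were picked after their values were seen, and others of the list did not go their way: Mbtps1, a protease that cuts SREBP precursors, differed by -0.12, Cyp27a1, an oxysterol-forming enzyme, by -0.09, Mylip, a ligase for lipoprotein receptors, by -0.03 and Osbp, an oxysterol-binding protein, by 0.01. Ch25h, which makes an oxysterol that restrains SREBP activation, had 12.26, 10.66, 12.46, 13.42 and 12.08 in CAF and 11.26, 10.76, 10.75, 11.08 and 11.16 in NF, a difference of 1.17 ± 0.41 (limma adjusted p = 0.143). CAF 2 lay below every NF array and the other CAF arrays above them all. The exporters Abca1 and Abcg1 differed by 0.68 ± 0.23 (adjusted p = 0.133) and 0.66 ± 0.23 (adjusted p = 0.141), and Nr1h3, a nuclear receptor that responds to oxysterols and activates both, by 0.39 ± 0.15 (adjusted p = 0.166). None of these 4 passed the test. With array weights, where 1597 of all 18193 genes were called, limma called Abca1 (0.89, adjusted p = 0.0439), Abcg1 (0.83, adjusted p = 0.0408) and Nr1h3 (0.51, adjusted p = 0.0395), and not Ch25h (1.23, adjusted p = 0.0849).

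Outside the listed genes, Tpbg, a membrane glycoprotein of the trophoblast, was the gene whose values over the 10 arrays were most like those of Hmgcs1 (r = 0.92), with a difference between the groups of 0.59 ± 0.52 (limma adjusted p = 0.532). This likeness is a description over shared arrays.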
